A study of Mus musculus with 8 samples.

Results

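The genes Mir99b, Mirlet7e and Mir125a make 3 microRNAs from a stretch of 700 bp on mouse chromosome 17, and SMAD4 ChIP-seq peaks of mouse limb buds covered all 3 of them at both stages studied. The members are these 3 genes and every peak whose centre lies within 100 kb of the start of Mir99b (mm9, GENCODE vM1). The rule gave 1 peak of 2073 in the E9.5 list and 1 peak of 6185 in the E10.5 list. The cluster was chosen because its peak has one of the highest scores of both lists, so the score and rank of that peak are given as a description and no test was made on them.

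SMAD4 was precipitated with the M2 anti-FLAG antibody from limb buds of NMRI embryos in which both copies of Smad4 carry a 3xFLAG tag, an allele that the ChIP and the input samples share. The E9.5 samples, which the protocol places at E9.75, came from forelimbs with attached trunk of about 80 embryos per replicate. The E10.5 samples came from fore- and hindlimbs of about 100 embryos per replicate, although the source label reads forelimb at both stages. Each stage has 2 ChIP and 2 input samples, 8 in all. The authors merged the replicates into a single peak list per stage, so no value below has a replicate error, and the stages differ in tissue as well as in age. The number of reads behind each list is not known from these files. A peak list of whole tissue does not say which cells of the bud and trunk carry the signal.

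SMAD4 is the partner that receptor-activated SMAD proteins take up to reach DNA in cells that receive BMP or TGFβ signals. A microRNA is cut from a hairpin in a longer transcript and then lowers the output of messenger RNAs that pair with its seed, bases 2 to 8 of the mature strand. The let-7 and miR-125 families are known from the nematode as regulators of developmental timing, where the miR-125 relative is called lin-4. In mammals let-7 is low in early embryonic cells, where the LIN28 proteins block its maturation, and rises as cells differentiate. The miR-99/100 family is known for targeting components of the mTOR pathway. Mammalian genomes hold several clusters in which a member of each of these 3 families sits beside the others.

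The mature sequences of the cluster, from RefSeq (GRCm38.p6), are shown because the seed decides which family each gene belongs to. Capitals mark the seed. The 5p strands of the 3 members have 3 different seeds.

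miR-99b-5p: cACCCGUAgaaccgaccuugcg
let-7e-5p: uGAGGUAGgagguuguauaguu
miR-125a-5p: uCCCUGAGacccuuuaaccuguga

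The 3p strands have seeds of their own.

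miR-99b-3p: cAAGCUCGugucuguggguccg
let-7e-3p: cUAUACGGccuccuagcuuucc
miR-125a-3p: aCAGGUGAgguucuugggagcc

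Mir99b shares its 5p seed with Mir99a and Mir100, the genes that open the related clusters on chromosomes 16 and 9. Between miR-99b-5p and each of miR-99a-5p and miR-100-5p, 18 of 22 bases are identical.

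miR-99a-5p: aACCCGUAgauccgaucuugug
miR-100-5p: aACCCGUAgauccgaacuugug

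Mirlet7e shares its 5p seed with Mirlet7c-1 of the chromosome 16 cluster and with let-7a-5p, which is taken here from the entry of Mirlet7a-1. Counting from the 5′ end, let-7e-5p differs from let-7a-5p by the substitution G9U, with 21 of 22 bases identical, and 20 of 22 are identical between let-7e-5p and let-7c-5p. The seed was the same in all 11 genes of the let-7 family that have a 5p entry, which make 9 different 5p sequences.

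let-7a-5p: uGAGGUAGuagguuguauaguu
let-7c-5p: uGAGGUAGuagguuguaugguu

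Mir125a shares its 5p seed with Mir125b-1 and Mir125b-2, which make the same 5p strand. The miR-125a-5p strand is 2 bases longer, and with 2 of its bases left out (UU) it was identical to miR-125b-5p at 21 of 22 bases.

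miR-125b-5p: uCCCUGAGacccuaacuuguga

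On the genome the members lie in the order Mir99b, Mirlet7e, Mir125a, all on the plus strand. Mir99b is annotated at chr17:17967152-17967221 and Mir125a at chr17:17967767-17967851 (mm9, GENCODE vM1). Mirlet7e is not listed by that name in GENCODE vM1 and was placed at chr17:17967316-17967408 by the single exact match of its RefSeq hairpin in the genome, where vM1 lists a microRNA gene, AC165361.1, on the minus strand. The gap between Mir99b and Mirlet7e is 94 bp and that between Mirlet7e and Mir125a is 358 bp. The first 257 bases of the cluster, from the start of Mir99b to the end of the Mirlet7e hairpin (chr17:17967152-17967408, mm9, plus strand), are printed with the 4 mature strands in capitals, since this stretch lies within the peak at both stages.

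Mir99b to Mirlet7e: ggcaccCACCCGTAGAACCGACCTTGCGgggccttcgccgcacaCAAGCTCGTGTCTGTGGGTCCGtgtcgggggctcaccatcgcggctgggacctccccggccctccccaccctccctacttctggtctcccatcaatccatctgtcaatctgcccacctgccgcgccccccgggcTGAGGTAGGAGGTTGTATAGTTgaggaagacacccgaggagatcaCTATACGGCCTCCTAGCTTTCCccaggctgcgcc

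At E9.5 the peak spanned chr17:17962771-17968266, a width of 5496 bp. At E10.5 it spanned chr17:17962742-17968417, a width of 5676 bp. The peak began 4381 bp upstream of Mir99b at E9.5 and 4410 bp upstream at E10.5, and it ended 415 bp and 566 bp past the end of Mir125a. All 3 hairpins were thus inside the peak at both stages, near its right edge. Of the 529 microRNA genes named Mir in GENCODE vM1, 6 (1.13%) lay wholly within a peak at both stages, Mir99b and Mir125a among them. A peak centre within 100 kb at both stages was found for 14.4%. Since the cluster was chosen for its peak, these shares are given as background only. Of the E9.5 peak, 79.7% lay upstream of Mir99b. The centre was 1.63 kb upstream of Mir99b, 1.8 kb upstream of Mirlet7e and 2.25 kb upstream of Mir125a at E9.5. The same distances were 1.57, 1.74 and 2.19 kb at E10.5. No annotated exon covers the centre at either stage.

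**Figure D1:**
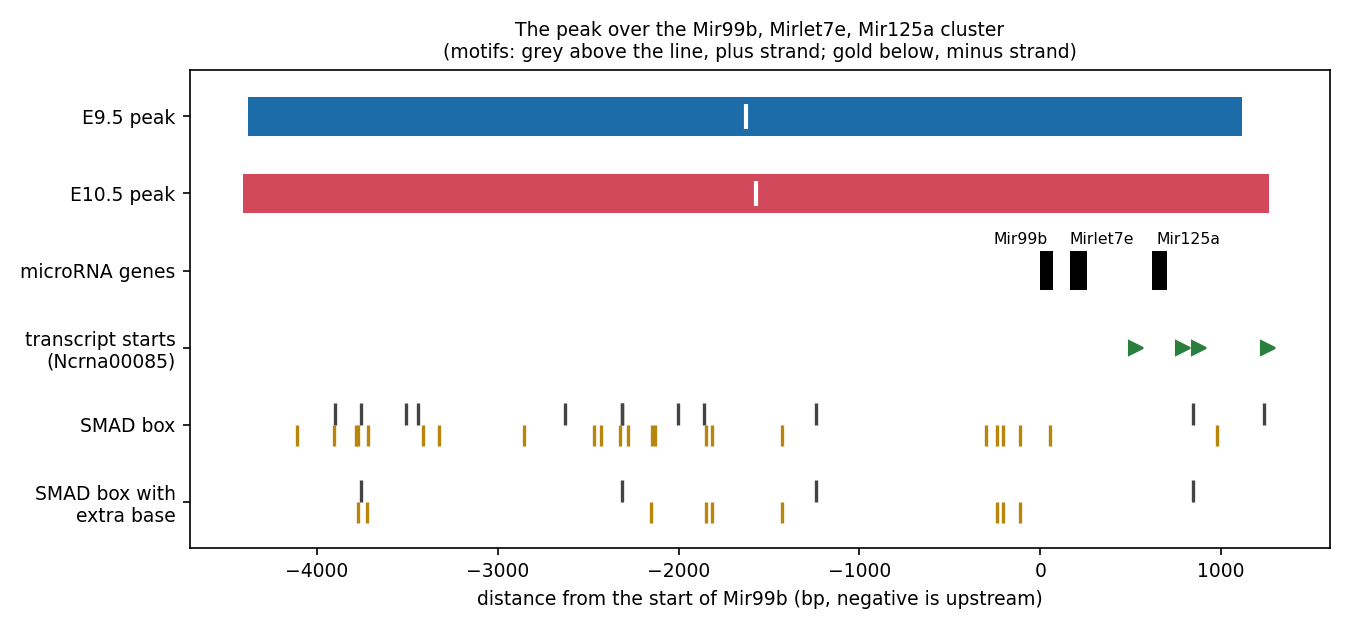
The E9.5 and E10.5 peaks (bars, with the centre as a white tick), the 3 microRNA genes, the starts of Ncrna00085 transcripts and the matches to CAGAC (SMAD box) and CAGACC (SMAD box with extra base), drawn against the distance in bp from the start of Mir99b. The hairpins sit at the right end of both peaks, and 31 of the 34 CAGAC matches of the E9.5 peak lie to the left of Mir99b.

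The right end of the peak also covers the start of the protein-coding gene Ncrna00085, for which RefSeq gives the symbol Spaca6, a gene named for a sperm acrosome protein. Of its 9 annotated transcripts, 4 started within the E9.5 peak and 5 within the E10.5 peak. The first of these starts was 531 bp downstream of the start of Mir99b and the start that only the E10.5 peak reached was 1256 bp downstream. Mir125a overlaps an exon of a processed transcript of this gene by 56 bases, and no annotated UTR or coding sequence overlaps it. The RefSeq start of Spaca6, found by an exact match of its promoter sequence to mm9, lies 787 bp downstream of the start of Mir99b and 96 bp past the end of the RefSeq Mir125a hairpin. The peak therefore holds the microRNA hairpins and the start of Ncrna00085 together, and the list does not tell which of them the signal belongs to.

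The other protein-coding genes that start within 100 kb of Mir99b are farther from the peak. Has1, which encodes a hyaluronan synthase, starts 26.6 kb from the centre of the E9.5 peak. The formyl peptide receptor genes follow, Fpr1 at 55.4 kb and Fpr2 and Fpr3 at 59.3 kb, and the gene model Gm7535 lies at 83.4 kb. Including Ncrna00085, 6 protein-coding genes start in this window.

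The cluster peak stood alone. No other peak had its centre within 1 Mb of Mir99b at either stage. At E9.5 the next peak to the left was 2248 kb away and the next to the right 6127 kb away, and at E10.5 these gaps were 2482 kb and 5732 kb. The distance to the nearest other peak was 234 kb at the median of the E9.5 list and 65.1 kb at the median of the E10.5 list. A gap as wide as that of the cluster peak, or wider, was found for 79 of 2073 E9.5 peaks (3.81%) and for 23 of 6185 E10.5 peaks (0.372%).

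The deposited score of the peak was 3100 in the E9.5 list and 892 in the E10.5 list, whose median scores were 56.3 and 59.8. The E9.5 value is held by exactly 2 peaks, is the highest in that list and is followed by 2075.97, so it may be the upper limit of the scale, and it is read here as a lower bound. The other peak at this value lies at the start of Skil, which encodes a repressor of SMAD signaling, and the third of the E9.5 list lies next to Grem1, the BMP antagonist of the limb bud, with a score of 2075.97. At E10.5 the cluster peak ranked 2 of 6185, behind the Skil peak (2155.22) and ahead of the peak at Smad7 (693.63), an inhibitory SMAD gene. Because the lists are of unknown depth and the E9.5 value may be a limit of the scale, the size of the score was not compared between the stages. These values are the ones that chose the cluster.

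**Figure D2:**
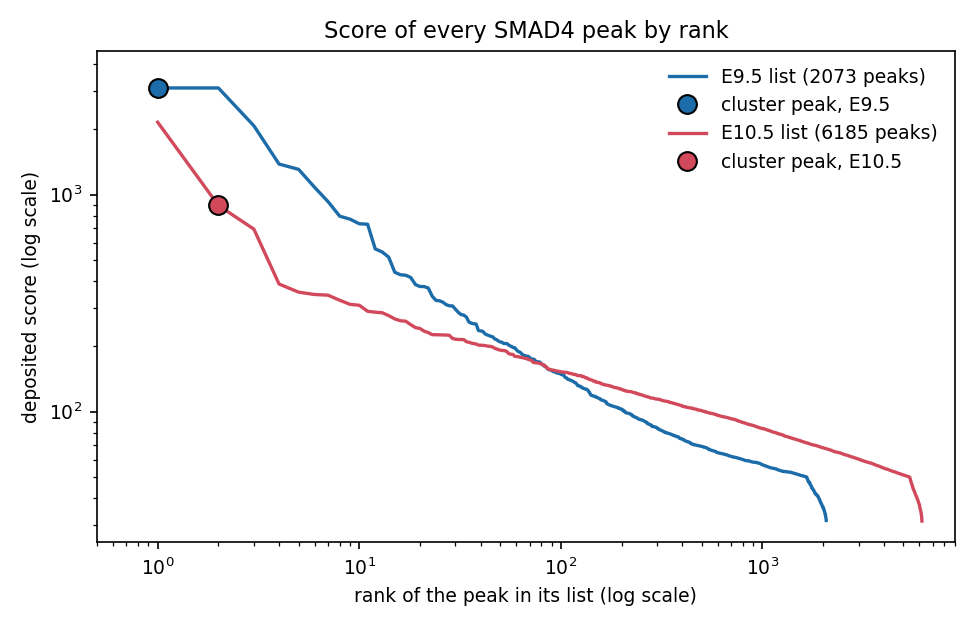
Deposited score of each peak against its rank in the E9.5 list (2073 peaks) and the E10.5 list (6185 peaks), both axes logarithmic, with the cluster peak as a large circle. The cluster peak is at 3100 in the E9.5 list, tied with 1 other peak at what may be the upper limit of the scale, and at 892, rank 2, in the E10.5 list.

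The peak was also wide. At E9.5 16 of 2073 peaks, itself included, were at least as wide (0.772%), against a median width of 1244 bp. At E10.5 763 of 6185 peaks were at least as wide (12.3%), against a median of 2552 bp, so its width stood out less in the later list. Per kb of width its score was 157 at E10.5, rank 12, against a median of 24.2. At E9.5 it was at least 564 per kb against a median of 48.2, and no rank is read from this lower bound.

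The peaks of the stages were nearly the same interval. The whole of the E9.5 peak lay within the E10.5 peak, and it made up 96.8% of it. The left edges differed by 29 bp, the right edges by 151 bp and the centres by 61 bp. Over all 390 pairs of overlapping E9.5 and E10.5 peaks, the median overlap was 84.5% of the union of both peaks and the median shift of the centre was 110.5 bp. The cluster pair ranked 18 of 390 by this share. Its larger edge shift, 151 bp, ranked 113 from the smallest, against a median of 239.5 bp. Of the 8 pairs in which both peaks were at least 5 kb wide, the cluster pair had the highest share. The 5 kb cut was not among the planned settings and lies just below the width of the cluster peak itself. For the peaks at Skil the share was 92.5%, at Grem1 95.1% and at Smad7 94.9%.

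**Figure D3:**
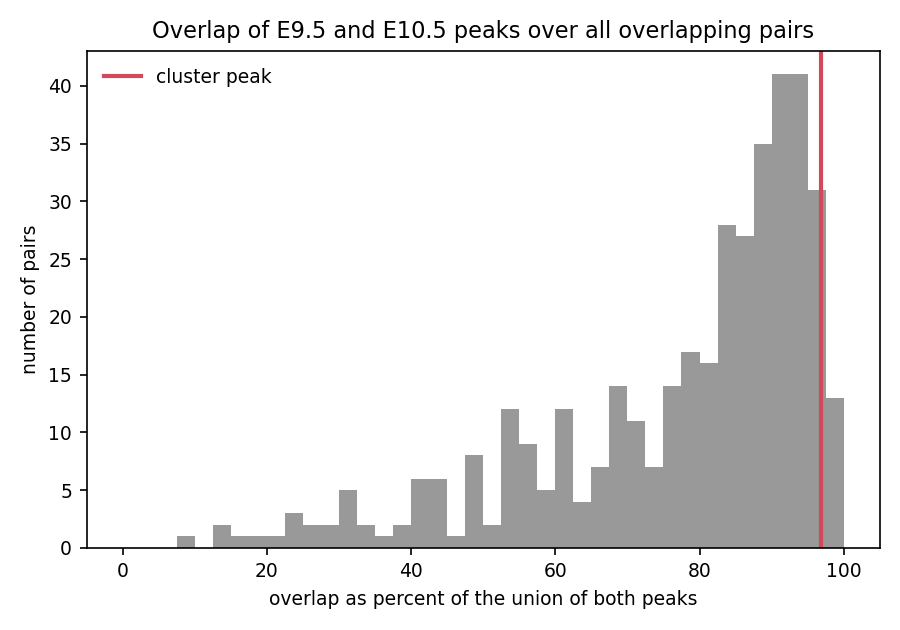
Number of the 390 overlapping pairs of E9.5 and E10.5 peaks by their overlap as a percent of the union of both peaks. The cluster pair (red line) is at 96.8%, and the median pair at 84.5%.

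SMAD proteins bind the short sequence CAGAC, called the SMAD box, and its longer form CAGACC. Both were searched on both strands with overlapping matches counted, and each CAGACC match is also a CAGAC match. The E9.5 peak held 34 CAGAC matches, 6.19 per kb, and the E10.5 peak 35, 6.17 per kb. The medians over all peaks were 2.87 per kb at E9.5 and 2.74 per kb at E10.5. Peaks as dense or denser, itself included, made up 146 of 2073 (7.04%) and 97 of 6185 (1.57%). By number of matches, 12 E9.5 peaks (0.579%) and 71 E10.5 peaks (1.15%) held as many as the cluster peak, itself included. Among peaks at least 5 kb wide, the same unplanned cut, 2 of 29 at E9.5 and 4 of 1057 at E10.5 had at least its density, itself included.

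CAGACC was found 13 times in the peak at both stages, 2.37 per kb at E9.5 against a median of 0.544, and 2.29 per kb at E10.5 against a median of 0.686. By density, 101 E9.5 peaks (4.87%) and 124 E10.5 peaks (2%) reached the cluster peak, itself included. By number, which favors wide peaks, 4 E9.5 peaks (0.193%) and 42 E10.5 peaks (0.679%) held 13 or more, again with the cluster peak counted. When the genome was divided into 464546 windows of 5496 bp without gaps in the sequence, the share of windows with at least 34 CAGAC matches was 0.263% and that with at least 13 CAGACC matches was 0.0534%. The median window held 12 CAGAC and 2 CAGACC matches. For comparison, the Skil peak held 16 CAGAC and 3 CAGACC matches at E9.5 (4.77 and 0.895 per kb), the Grem1 peak 5 and 2 (2.87 and 1.15 per kb), and the E10.5 peak at Smad7 8 and 5 (1.66 and 1.04 per kb).

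The cluster peak was richer in G and C than most, with 57.6% at E9.5 against a median of 50.4% over all peaks, and 57.3% at E10.5 against 53.1%. The median genome window had 41.2%. The part of base composition in the motif counts was not tested. The ratio of observed to expected CpG was 0.297 for the E9.5 peak (median 0.266) and 0.293 for the E10.5 peak (median 0.304), close to the middle of each list.

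The matches were spread unevenly over the peak. Upstream of Mir99b the E9.5 peak held 31 CAGAC matches in 4381 bp, 7.08 per kb, and from the start of Mir99b on it held 3 in 1115 bp, 2.69 per kb. Of the CAGACC matches, 12 were upstream and 1 was downstream. The minus strand carried 23 of the 34 CAGAC matches and 9 of the 13 CAGACC matches. A run of matches began 4112 bp upstream of Mir99b and ended 1238 bp upstream, and after a stretch without any a second group stood between 302 and 113 bp upstream. A further match lay 53 bp into the Mir99b gene. In the 300 bp around the centre of the E9.5 peak there was no CAGAC match, whereas 60.6% of all E9.5 peaks had at least 1 in that window. At E10.5 the window held 1 CAGAC match, which was also a CAGACC match, and 53.2% of all peaks held a CAGAC match there. The centre is the midpoint of the interval, since the lists give no summit.

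The 300 bases of the E9.5 peak densest in CAGAC (chr17:17964634-17964933, mm9, plus strand, starting 2518 bp upstream of Mir99b) are printed to show how the matches lie. Capitals mark CAGAC and its reverse complement GTCTG, 6 matches of which 2 overlap. The stretch was picked for its density, so its number is not set beside other windows. Of all 300-bp windows of the genome, 45.4% held at least 1 match.

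Densest 300 bases: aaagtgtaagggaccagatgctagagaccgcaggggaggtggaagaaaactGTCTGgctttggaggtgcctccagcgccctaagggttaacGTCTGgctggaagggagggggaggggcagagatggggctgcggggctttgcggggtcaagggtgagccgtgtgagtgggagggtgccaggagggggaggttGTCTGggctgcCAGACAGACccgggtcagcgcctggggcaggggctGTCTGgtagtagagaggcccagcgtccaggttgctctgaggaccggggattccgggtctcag

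Other sequences were rare or not found. GTCTAGAC, the palindrome made of a pair of SMAD half-sites, had no match in the peak. It was present in 4.53% of E9.5 peaks, 3.62% of E10.5 peaks and 4.19% of genome windows of 5496 bp. The median peak is shorter than these windows, so the shares of peaks and windows are not set against each other. GGCGCC, a GC-rich element also bound by SMAD proteins, had 1 match, 690 bp downstream of the start of Mir99b, within the Mir125a gene, and was present in 26.1% of E9.5 peaks, 44% of E10.5 peaks and 12.3% of windows. TGACTGAC, a sequence bound by homeodomain proteins of the TALE class, had no match and was present in 5.5% of E9.5 peaks, 11.6% of E10.5 peaks and 17.4% of windows.

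The number of CAGAC matches before Mir99b was then set beside that of the other microRNA genes, using the 4381 bp upstream of each gene, a length set by the left edge of the E9.5 peak at Mir99b. Mir99b had 31 CAGAC and 12 CAGACC matches. The median of the 529 microRNA genes of GENCODE vM1 whose name starts with Mir was 9 and 2. None of the other 528 genes reached either number at this length, which was fitted to Mir99b. Over 1, 2, 5 and 10 kb upstream, lengths chosen after the data were seen, 90, 35, 1 and 6 of the other genes reached the CAGAC number of Mir99b over the same length, and 9, 0, 1 and 10 its CAGACC number. Mir99a had 7 CAGAC and 2 CAGACC matches, and Mir100 had 4 and none. The GC content of these stretches was 58.3% for Mir99b, 34.6% for Mir99a, 39.9% for Mir100 and 45% at the median, and its part in the counts was not tested.

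The related clusters had no peak of similar score within 100 kb. The chromosome 17 cluster was chosen because its peak has one of the highest scores of both lists, so this contrast restates the choice. On chromosome 16, where Mir99a, Mirlet7c-1 and Mir125b-2 spread over 47.4 kb, the E9.5 list had no peak within 100 kb of Mir99a, and the nearest was centred 177 kb upstream with a score of 59.31 (rank 857). The E10.5 list had 1 peak, chr16:77594372-77595529, centred 4.23 kb upstream of Mir99a and 4.95 kb upstream of Mirlet7c-1. Its score was 54.81, rank 4030 of 6185, its width was 1158 bp and it held no CAGAC match. Mir125b-2 lay 51.6 kb from it.

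On chromosome 9, where Mir100, Mirlet7a-2 and Mir125b-1 spread over 50.6 kb within the noncoding gene D230004N17Rik, neither list had a peak within 100 kb of Mir100. Over all 529 microRNA genes, 20.8% had an E9.5 peak in this range and 43.5% an E10.5 peak. The peaks nearest to Mir100 overlapped each other between the stages. They were centred 133 kb upstream at E9.5 and 132 kb upstream at E10.5, with scores of 62.69 (rank 682) and 40.54 (rank 5812). Farther out, an E9.5 peak with a score of 296.58 (rank 30) was centred 369 kb downstream of Mir125b-1, and an E10.5 peak with a score of 183.97 (rank 57) was centred 354 kb downstream. Of the 3 clusters, only the one on chromosome 17 had hairpins within a peak, and only it had a peak within 100 kb at both stages. It was chosen for its peak and the others were not, so this contrast is largely set by the choice. Over the 529 microRNA genes, 14.4% had a peak within 100 kb at both stages and 1.13% lay wholly within a peak at both. Lacking such a peak is thus the usual state. With 3 clusters no test was made of these differences.

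**Figure D4:**
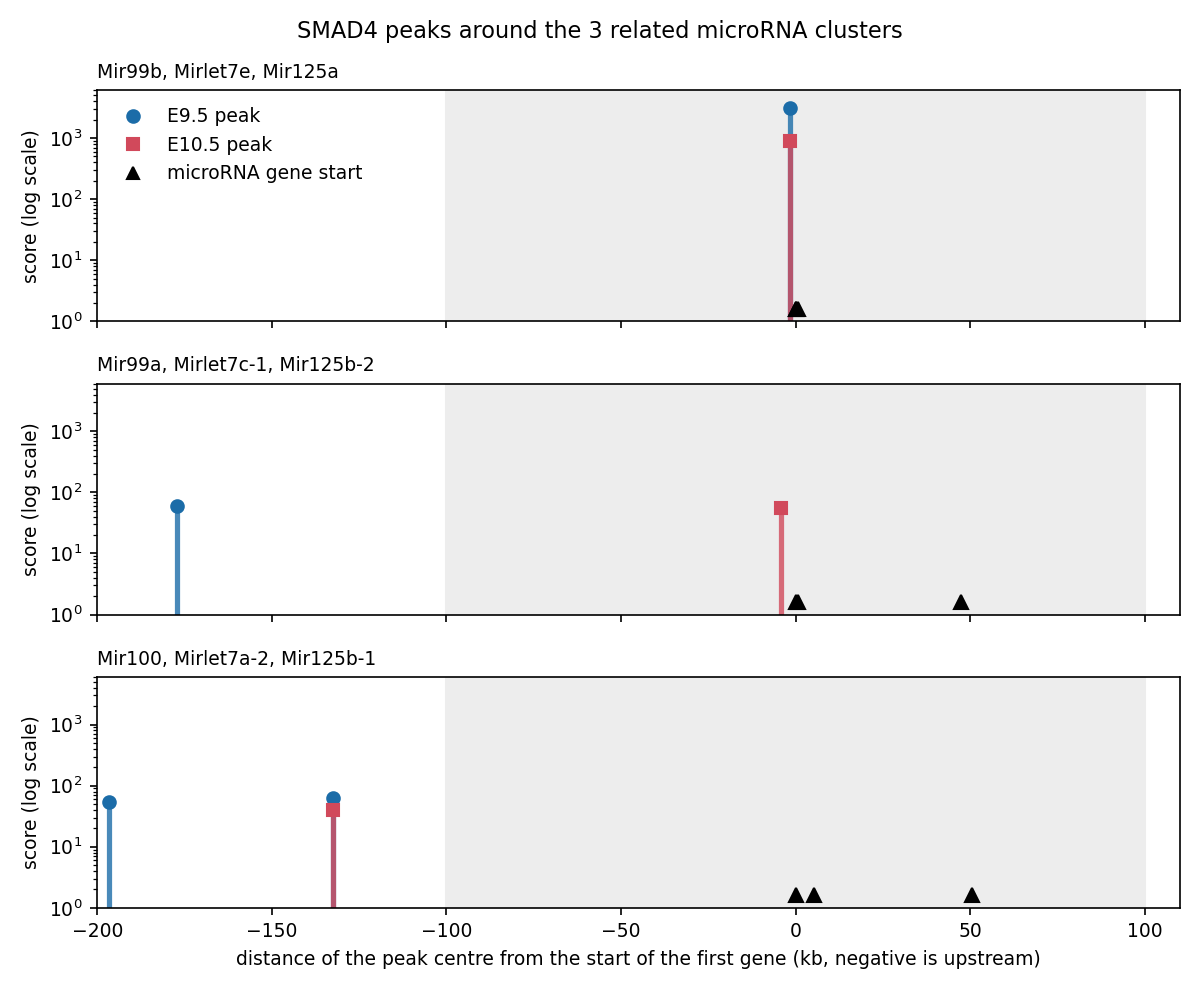
Score (log scale) of each E9.5 peak (circles) and E10.5 peak (squares) against the distance of its centre in kb from the start of the first gene of each cluster, with gene starts as triangles and 100 kb to each side shaded. Within the shaded range the chromosome 17 cluster has peaks at 3100 and 892, the chromosome 16 cluster has 1 E10.5 peak at 54.81 and the chromosome 9 cluster has none.

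Across the let-7, miR-99/100, miR-125 and miR-10 families, 20 genes in all, 7 had an E9.5 peak centre within 100 kb of their start and 15 had an E10.5 peak centre. The shares over the 529 microRNA genes were 20.8% at E9.5, 43.5% at E10.5 and 14.4% at both. The 3 members of the cluster share 1 peak per stage, and the cluster was selected on that peak, so the other 17 genes are the ones to read: 4 of them had an E9.5 peak in range and 12 an E10.5 peak. The 4 were Mirlet7b, Mirlet7c-2, Mir10a and Mir10b.

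Mirlet7b and Mirlet7c-2 lie beside each other on chromosome 15 and share an E9.5 peak centred 60.7 and 60 kb upstream (score 63.96) and an E10.5 peak centred 55 and 54.3 kb upstream (47.38). Mirlet7a-1, Mirlet7f-1 and Mirlet7d lie together on chromosome 13 and share an E10.5 peak centred 7.9 kb upstream of Mirlet7a-1 with a score of 143.43, rank 132. The nearest E9.5 peak to these 3 genes was over 300 kb away, at 310, 310 and 308 kb downstream, and had a score of 1081.32, rank 6. Mirlet7i was the only gene outside the cluster, among these families, whose body lay within a peak, at E10.5 and with a score of 67.31, rank 2092. Mirlet7g had its nearest E10.5 peak 30.3 kb upstream. Mirlet7f-2 and Mir98 on chromosome X had none within 100 kb, with the nearest E10.5 peaks at 104 and 103 kb.

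The miR-10 family, whose genes lie among the Hox genes, is related in sequence to miR-99/100. Mir10a had an E9.5 peak 4.99 kb upstream with a score of 122.44, rank 139, and its nearest E10.5 peak was 27.8 kb downstream. Mir10b had an upstream peak at both stages, with a score of 124.91 (rank 137) at 21.2 kb at E9.5 and of 67.01 (rank 2127) at 21.4 kb at E10.5.

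**Figure D5:**
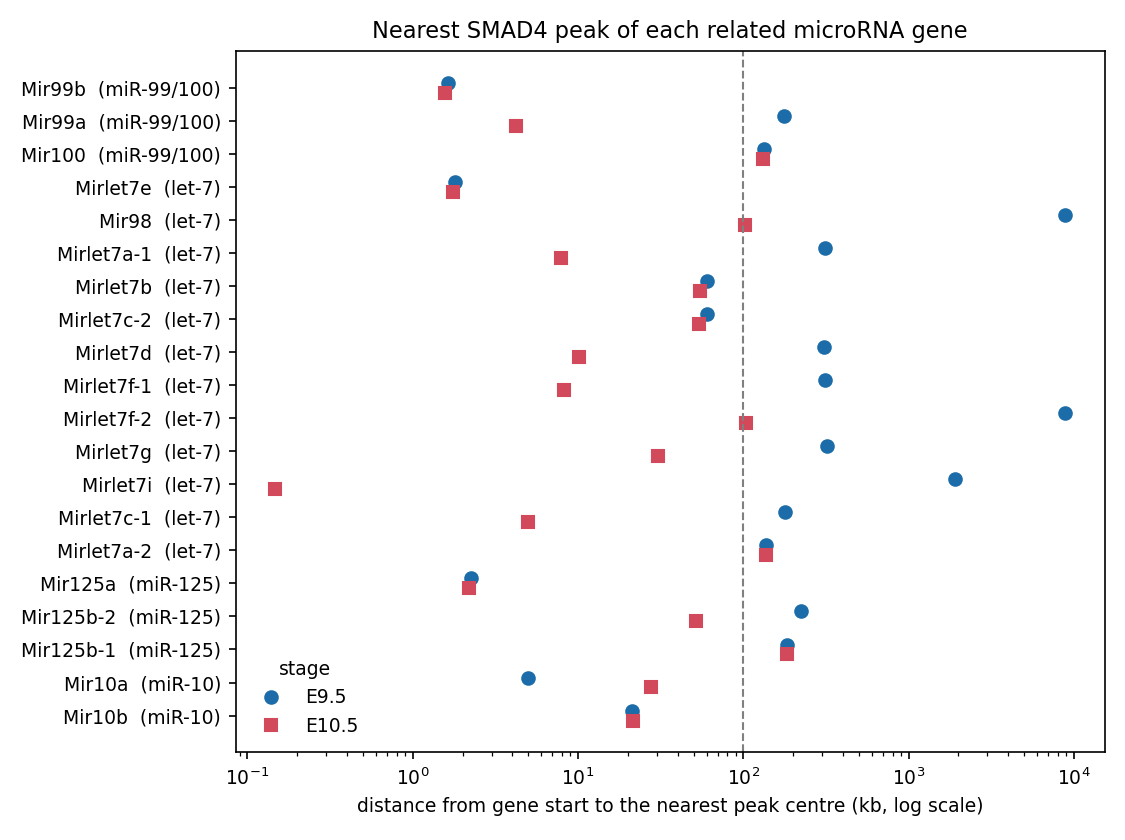
Distance in kb (log scale) from the start of each of 20 related microRNA genes to the nearest E9.5 peak centre (circles) and E10.5 peak centre (squares), with the dashed line at 100 kb. The cluster genes lie between 1.57 and 2.25 kb at both stages, and 4 of the 17 other genes have an E9.5 peak to the left of the line.

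Having the whole gene within a peak was rare among microRNA genes. It held for 8 of 529 genes at E9.5 (1.51%), for 20 at E10.5 (3.78%) and for 6 at both (1.13%). The 6 were Mir99b, Mir125a, Mir1893, Mir1895, Mir1903 and Mir1945, and Mirlet7e, which is not listed by name, adds to them. Mir1945 falls outside the groups named by rule, and was named after its values were seen.

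The microRNA genes most like the cluster were taken as those with the smallest sum of ranks of their best peaks within 10 kb at both stages. Within that distance 15 genes at 8 loci had a peak at both stages. The cluster, chosen by these ranks, comes first by construction. Of the others, Mir1893 came first, with rank 86 and a score of 157.32 at E9.5, then rank 47 and a score of 195.94 in the later list. The Mir17, Mir18, Mir19a, Mir20a, Mir19b-1 and Mir92-1 cluster, known for promoting proliferation, followed with a peak centred 2.3 kb upstream of Mir17 at E9.5 (score 177.54, rank 70) and 2.32 kb upstream at E10.5 (110, rank 354). As at the chromosome 17 cluster, the peak centre lay upstream of the first gene, but the hairpins of Mir17 to Mir92-1 were outside the peak. Then came Mir1903 (ranks 255 and 542), Mir1895 (159 and 860) and the pair Mir181d and Mir181c (109 and 1062), whose peaks were centred 1.9 and 1.73 kb upstream of Mir181d.

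Genes that act with or under let-7 and miR-125 were examined in the same way, as a list of 17. At E9.5 5 of 17 had a peak centre within 100 kb of their start, where the share over all 22350 protein-coding genes was 20.5%. At E10.5 13 of 17 did, where the share was 52.9%. No E9.5 peak in range of the list had a score of 100 or more, and at E10.5 5 of 17 genes had one, where the shares over all protein-coding genes were 3.04% and 8.77%. Within 10 kb, 1 and 8 of the 17 had a peak, against 3.6% and 16.6%. The list is short and was chosen with earlier results of these data known. No difference from these shares is therefore read for it or for its parts below.

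Among the 11 targets and regulators, 4 had an E9.5 peak in range and 8 an E10.5 peak, beside 20.5% and 52.9% of all protein-coding genes. Lin28a and Lin28b, which encode the proteins that block let-7 maturation, had none at E9.5. At E10.5 a peak covered the start of Lin28a (score 81.5, rank 1095), and a peak with a score of 140.61, rank 139, lay 60.3 kb downstream of the start of Lin28b. Trim71, the vertebrate lin-41 and a classical let-7 target, had the highest score of the list, 225.59 or rank 27 at E10.5, in a peak that covered its start, and at E9.5 a peak of 37.02 lay 27.1 kb downstream. Igf2bp3, an RNA-binding protein gene and let-7 target, was the only gene of the list with a peak over its start at both stages, with scores of 60.57 and 79.53. Igf2bp2 had a peak over its start at E10.5 (103.19), and Igf2bp1 had none in range at either stage. Hmga2, a chromatin protein gene repressed by let-7, had an E10.5 peak 75.9 kb upstream (69.23). Dis3l2, which encodes the nuclease that degrades uridylated let-7 precursors, had a peak over its start at E10.5 (67.56). Zcchc11 and Zcchc6, which encode the enzymes that add the uridines, had a peak in range at E9.5, at 88 and 28.8 kb upstream, and none in range at E10.5. Arid3a, a transcription factor gene targeted by miR-125, had its nearest E10.5 peak 34.6 kb upstream.

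Of the 6 genes of microRNA processing, 1 had an E9.5 peak in range and 5 an E10.5 peak, beside the same shares of 20.5% and 52.9%, and 6 genes are too few to read a difference from. The E9.5 peak was that of Tarbp2, which encodes a partner of Dicer, 47.3 kb upstream with a score of 64.71, and an E10.5 peak lay 47.4 kb upstream with a score of 161.27, rank 84. Dicer1 and Eif2c2, which encode Dicer and Argonaute 2, had E10.5 peaks over their starts with scores of 83.39 and 53.65. Drosha had its nearest E10.5 peak 9.28 kb downstream (63.06) and Dgcr8, its partner, 54.4 kb downstream (56.49). Xpo5, which encodes the exporter of the hairpins, had none within 100 kb.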

How the data were processed

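SMAD4-3xFLAG ChIP and input DNA of 8 samples were sequenced, and the deposited files are a peak list per stage. Per the authors' methods and processing notes, reads were aligned to mm9 with Bowtie 1.1.0 and kept where they matched a single place, so sequence shared with other loci gives less signal. Peaks were called per replicate with MACS 1.4 against input under a permissive threshold, and overlapping replicate peaks were merged with MSPC, each kept peak taking the best p-value of the replicates. The deposited score is a column the files leave unnamed, and whether it is derived from that p-value is not stated in them. Sequencing depth is not given in the files. Peak starts were made 1-based. A peak was assigned to a gene by the distance of its centre to the 5′ end of the gene, within 100 kb, and peaks sharing at least 1 bp were paired. GENCODE vM1 and NCBIM37 (mm9) gave annotation and sequence, and 5 of the 20 microRNA genes of the families, not listed by name in vM1, were placed by an exact match of RefSeq hairpins (GRCm38.p6). For 18 of the 20 a hairpin was at hand and each matched once. Python 3.11.15, pandas 2.3.3, NumPy 2.4.6, SciPy 1.17.1, pysam 0.24.0 and Matplotlib 3.10.9 were used, and the counting was tested on simulated data. Named genes are the members, the related clusters, the listed families and pathway genes, protein-coding genes starting within 100 kb, the 5 microRNA loci with the smallest summed rank and the other peaks among the 3 best of either list. Outside these groups, Mir1945 was named after its values were seen, and D230004N17Rik and AC165361.1 as annotation at the clusters. Members and lists were chosen with earlier results of these data known.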

Additional observations from a re-analysis of the deposited data

How the results depend on the processing

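No paired analysis was possible because each stage is a single merged list, so no replicate could be left out and no spread computed. The number of peaks at the cluster (1 per stage) and their overlap did not change for distances from 10 kb to 1000 kb, the nearest of the 3 genes, edges, a score of 100 or more, reciprocal overlap of 50% or centres within 250 bp. By width the rank was 16 in place of 1 at E9.5 and 763 in place of 2 at E10.5. By score per width it was 12 at E10.5 and came out as 4 at E9.5, which is not a measured shift, since the score there may be at the limit of its scale. Within 250, 500 and 1000 kb the chromosome 16 cluster had 1, 1 and 4 E9.5 peaks and, at 1000 kb, 2 E10.5 peaks, and the chromosome 9 cluster 2, 5 and 5 E9.5 and 1, 4 and 7 E10.5 peaks. The share of microRNA genes with a peak was 4.91% and 12.5% at 10 kb (E9.5, E10.5), 13.2% and 31.6% at 50 kb, 25.2% and 55.1% with neighbors merged, and 6.24% and 10.4% at a score of 100 or more. In settings added after the data were seen, it was 60.1% at E10.5 over RefSeq hairpins and 1.51% and 3.78% for genes inside a peak. Family genes with a peak were 4 and 8 of 20 at 10 kb, and 7 at E10.5 at a score of 100 or more. Without the 3 cluster genes they were 1, 5 and 4 of 17, beside 4.91%, 12.5% and 10.4% of microRNA genes. These shares are over genes named Mir in vM1 and not over RefSeq hairpins, so no difference from them is read. Other microRNA genes reaching the CAGAC number upstream of Mir99b went from 0 to 90, 35, 1 and 6 at 1, 2, 5 and 10 kb, and for CAGACC to 9, 0, 1 and 10, settings also added later. Pathway genes were 1 and 8 of 17 at 10 kb (3.6% and 16.6% of protein-coding genes), and 0 and 5 at that score (3.04% and 8.77%). CAGAC matches per kb were 0 around the E9.5 centre, as were CAGACC matches, and 3.82 without those in CAGACC. The cause of these shifts was not tested beyond the change of window or cutoff itself. Depth is unknown, so an absent peak may be one not detected.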
